A study of Mus musculus with 15 samples.

Results

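The core autophagy genes described here are 10 genes of the pathway by which a cell encloses part of its own cytoplasm and delivers it to the lysosome. They were chosen by symbol: Ulk1, Becn1, Wipi1, Atg5, Map1lc3a, Map1lc3b, Gabarap, Gabarapl1, Gabarapl2 and Sqstm1. All 10 were found among the 46078 genes of the batch 1 count table and among the 13063 named genes of the batch 2 count table, and all 10 passed the filter on low counts in both. The RNA came from satellite cells, the stem cells of skeletal muscle, which had been taken from mouse hindlimb muscle and cultured in F10 medium with horse serum. In batch 1 the cells received adenosine at 0.05 mM or DMSO for 24 hours. In batch 2 they received adenosine at 0.1 mM, adenosine monophosphate (AMP) at 0.25 mM or DMSO for 24 hours, and the labels give the strain C57BL/6J for that batch. Each of the 5 groups had 3 libraries, no allele or transgene is named for any group, and DMSO stands for the control cultures of each batch. Nothing in the labels tells if replicate libraries stem from different mice or dishes, so p-values here reflect the scatter of libraries, which may be technical.

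Autophagy starts when the ULK1 kinase complex is switched on and a lipid kinase complex built around Beclin 1 marks a membrane site with phosphatidylinositol 3-phosphate. WIPI proteins bind that lipid, and a conjugation machinery that includes ATG5 then attaches small ubiquitin-like modifiers of the ATG8 family, the LC3 and GABARAP proteins, to the growing membrane. Receptors such as p62, the product of Sqstm1, tether ubiquitin-marked cargo to the ATG8 proteins and are themselves degraded with it. Transcript levels report on none of the lipid or protein steps. In muscle stem cells autophagy is known for its part in keeping the resting state and in supplying energy on activation.

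Of the 10 genes, 4 lay on chromosome 11, namely Sqstm1, Gabarap, Wipi1 and Becn1, and the other members were spread over chromosomes 2, 5, 6, 8 and 10. Map1lc3b and Gabarapl2 both lay on chromosome 8. The deposited gene models (GRCm38) place Ulk1 at chr5:110784488-110810097 on the minus strand, Becn1 at chr11:101285952-101302286 on the minus strand, Wipi1 at chr11:109573331-109611967 on the minus strand and Atg5 at chr10:44268358-44364291 on the plus strand. Of the ATG8 genes, they place Map1lc3a at chr2:155276297-155278073 on the plus strand, Map1lc3b at chr8:121590361-121598760 on the plus strand, Gabarap at chr11:69991143-69994951 on the plus strand, Gabarapl1 at chr6:129533200-129542331 on the plus strand and Gabarapl2 at chr8:111940703-111953612 on the plus strand. Sqstm1 lies at chr11:50199366-50210827 on the minus strand. Counts were made over all annotated exons of a gene. Map1lc3b shared 58 exon bases with Zcchc14 and Gabarapl1 shared 35 with 1700101I11Rik, and the larger overlaps of Becn1 and Sqstm1 are given with those genes. The RefSeq promoter table of GRCm38 held a window for 8 of the members, and Map1lc3a and Becn1 were not matched. The windows of the 250 bases before the RefSeq start are shown for 4 members, stopping where the deposited gene model begins: Ulk1 and Map1lc3b because their change with adenosine differed between the batches, Sqstm1 because it was the most abundant member, and Atg5 because its window was the one with an E-box. Each is written 5′ to 3′ on the strand of the gene, with capitals for GC boxes (GGGCGG or its complement CCGCCC) and for the E-box (CACGTG). Ulk1 lies at chr5:110810098-110810331 on the minus strand, Map1lc3b at chr8:121590188-121590360 on the plus strand, Sqstm1 at chr11:50210828-50211070 on the minus strand and Atg5 at chr10:44268089-44268338 on the plus strand.
Ulk1: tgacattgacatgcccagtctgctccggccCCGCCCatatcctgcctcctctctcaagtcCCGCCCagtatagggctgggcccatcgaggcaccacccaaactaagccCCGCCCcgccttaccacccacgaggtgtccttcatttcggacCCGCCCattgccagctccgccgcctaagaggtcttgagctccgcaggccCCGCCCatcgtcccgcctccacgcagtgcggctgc
Map1lc3b: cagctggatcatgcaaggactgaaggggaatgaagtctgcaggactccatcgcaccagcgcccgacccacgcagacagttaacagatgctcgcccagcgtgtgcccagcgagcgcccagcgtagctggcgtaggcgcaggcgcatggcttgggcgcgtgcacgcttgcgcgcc
Sqstm1: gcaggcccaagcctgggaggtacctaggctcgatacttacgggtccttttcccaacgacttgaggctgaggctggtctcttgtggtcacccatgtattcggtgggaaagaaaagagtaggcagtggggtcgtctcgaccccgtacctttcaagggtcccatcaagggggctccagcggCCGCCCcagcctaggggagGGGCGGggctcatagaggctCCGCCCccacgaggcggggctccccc
Atg5: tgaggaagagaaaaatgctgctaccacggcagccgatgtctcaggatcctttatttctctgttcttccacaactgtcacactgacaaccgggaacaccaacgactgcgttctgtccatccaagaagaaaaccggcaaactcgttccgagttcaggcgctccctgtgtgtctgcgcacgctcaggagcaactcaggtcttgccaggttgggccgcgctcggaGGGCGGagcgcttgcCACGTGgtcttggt
The GC box, the letters that SP1 binds, was found on either strand in 7 of the 8 windows, against 32.7% of all 32851 RefSeq windows of the same length. Wipi1 held the most copies, at 8. Ulk1 held 5, Sqstm1 held 3, Gabarapl1 and Gabarapl2 held 2 each, and Atg5 held 1. The single copy of Map1lc3b began 37 bases before its RefSeq start, inside the deposited gene model and so not shown. The E-box CACGTG, the core of the sites bound by TFEB and MITF, was found in 1 of 8 windows, that of Atg5, where it began 14 bases before the start, against 6.02% of all windows. None of the 8 windows held the longer CLEAR element, which is the E-box with a fixed pair of bases on each side, the forkhead element GTAAACA, the cAMP element TGACGTCA, the AP-1 element TGANTCA, the antioxidant element TGACNNNGC or the CCAAT box, which were present in 0.24%, 3.17%, 1.55%, 6.75%, 10.2% and 33.8% of all windows in that order. The CLEAR element contains the E-box, so those 2 searches overlap. The GC content of the 8 windows ran from 46.4% to 69.6%, against a median of 52.4% over all windows. The CpG counts of the 8 windows ran from 6 to 30, against a median of 6 over all windows. Gabarap gave both low ends and was the window without a GC box. Only 23 of the 250 bases of the Gabarap window lay before the deposited gene model, and 0 of those of the Wipi1 window. The letters of the GC box hold a CpG, and the windows compared were not matched for CpG content. A match gives letters in a window, not a bound site.

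Counts per library ran from 14683346 to 20799588 in batch 1 and from 11107450 to 14201933 in batch 2. Levels below are FPKM as the authors deposited them, and fold changes come from the raw counts. FPKM divide counts by a gene length, in batch 1 that of all annotated exons of the gene. That length was 7517 bases for Map1lc3b and 1844 for Gabarap, so the order of genes by FPKM depends on it. The lengths behind the batch 2 FPKM are not given. Of the marker list of satellite cells (6 of 6 in both tables), Pax7 and Myod1 were present in all 15 libraries. The summed FPKM of the list was 746 to 1090 with adenosine and 2270 to 2390 with DMSO in batch 1, and 622 to 737 with adenosine, 719 to 931 with AMP and 1640 to 1960 with DMSO in batch 2, most of it Myod1. Pax7, the defining gene of satellite cells, ranged from 8.64 to 10.2 FPKM with adenosine and from 10.2 to 11.6 FPKM with DMSO in batch 1, and lay the other way in batch 2, at 10.1 to 10.6 FPKM with adenosine and 11.3 to 13.5 FPKM with AMP, against 7.46 to 8.70 FPKM with DMSO. The 6 leukocyte markers summed to 8.25 to 11.9 FPKM with adenosine and 1.02 to 2.11 FPKM with DMSO in batch 1, nearly all of it Cd68, a gene of late endosomes and lysosomes as well. Ptprc, the defining gene of leukocytes, stood at 0.0628 FPKM or less in all 6 libraries of batch 1, and Adgre1 and Csf1r were at 0 in its DMSO libraries. With adenosine in batch 1 Ptprc had 3 to 18 counts and Csf1r 1 to 5, against 0 to 1 and 0 with DMSO. Adgre1, Lyz2 and Itgam overlapped between these groups. In batch 2 the table listed 2 of the 6, Cd68 and Csf1r, and they summed to 8.43 to 9.94 FPKM with adenosine, 8.43 to 10.4 FPKM with AMP and 1.45 to 2.77 FPKM with DMSO. Csf1r alone had 16 to 29 counts with adenosine, 18 to 31 with AMP and 1 to 3 with DMSO there. The 4 endothelial markers summed to 3.40 to 4.34 FPKM with adenosine and 1.13 to 1.47 FPKM with DMSO in batch 1, mostly Tek, with Pecam1 at 0.318 FPKM or less. The 2 of them listed in batch 2, Pecam1 and Tek, summed to 1.70 to 2.04 FPKM with adenosine, 1.83 to 2.35 FPKM with AMP and 0.468 to 1.24 FPKM with DMSO. Markers of fibro-adipogenic progenitors, mostly Cd34, summed to 35.5 to 40.3 FPKM with adenosine and 43.2 to 53.6 FPKM with DMSO in batch 1, and those of adult fibres to 0.412 to 5.81 FPKM with adenosine and 9.57 to 24.3 FPKM with DMSO. Among the progenitor markers in batch 1, mean Cd34 and Dpt were lower with adenosine, at 30.5 and 5.6 FPKM against 37.1 and 9.6 FPKM with DMSO. Mean Dcn, Ly6a and Pdgfra were higher, at 1.52, 0.679 and 0.0914 FPKM against 0.88, 0.147 and 0.0374 FPKM, with overlapping libraries. In batch 2 the 3 of 5 progenitor markers listed summed to 31.9 to 33.1 FPKM with adenosine, 44.2 to 52.8 FPKM with AMP and 45.1 to 53.7 FPKM with DMSO, so AMP overlapped DMSO. Of these, Dcn went the other way, with means of 1.1 FPKM with adenosine, 1.02 FPKM with AMP and 0.345 FPKM with DMSO. The 1 of 4 fibre markers listed there, Acta1, overlapped between all groups, at 2.26 to 20.5 FPKM with adenosine, 4.96 to 21.0 FPKM with AMP and 6.13 to 22.2 FPKM with DMSO. The lists of smooth muscle and pericytes and of Schwann cells stayed at or below 1.14 FPKM in every library. The part of these differences in the results below was not tested. In bulk RNA, fewer cells of a type and less RNA per cell cannot be told apart.

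Nearly all core autophagy genes had more transcript with adenosine or AMP than with DMSO, and the ATG8 genes Map1lc3b, Map1lc3a and Gabarapl1 were among the 4 largest rises in each comparison. With 0.05 mM adenosine in batch 1, 9 of 10 members were called higher and 0 lower (edgeR quasi-likelihood test, Benjamini-Hochberg adjusted p under 0.05 over all genes tested), where 19.6% of the 13842 genes tested were called higher and 39.2% in either direction. With 0.1 mM adenosine in batch 2, 9 of 10 were called higher and 0 lower, where 34.9% of the 13063 genes tested were called higher and 69.4% in either direction. With 0.25 mM AMP, 9 of 10 were called higher and 0 lower, where 33.7% were called higher and 65.6% in either direction. The member outside the calls was Wipi1 each time. Leaving out 1 library at a time left 6 to 8 members called in batch 1, and those lost were among Becn1, Atg5 and Gabarap. The median log2 fold change of the 10 was 0.69 in batch 1, 0.97 with adenosine in batch 2 and 0.82 with AMP, beside 0.03, 0.01 and 0.01 over all genes tested. The adenosine and AMP comparisons of batch 2 share their DMSO libraries, so they are not independent, and their doses differ, so their values are set side by side without a test.

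The scaling of the libraries bears on the balance of rises and falls. With library totals in place of TMM factors, the median over all genes tested moved, on the log2 scale, to 0.22 in batch 1, 0.32 with adenosine in batch 2 and 0.28 with AMP. The genes called higher and lower then numbered 4012 and 1955 in batch 1, against 2714 and 2706 with TMM, 6344 and 2891 with adenosine in batch 2, against 4559 and 4508, and 6037 and 2605 with AMP, against 4405 and 4159. The members called higher numbered 9, 9 and 10 with library totals. All treated libraries lay above all DMSO libraries in FPKM for 9 of 10 members in batch 1, where 25.8% of genes did so, for 9 of 10 with adenosine in batch 2, where 37.1% did so, and for 10 of 10 with AMP, where 35.5% did so.

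**Figure D1:**
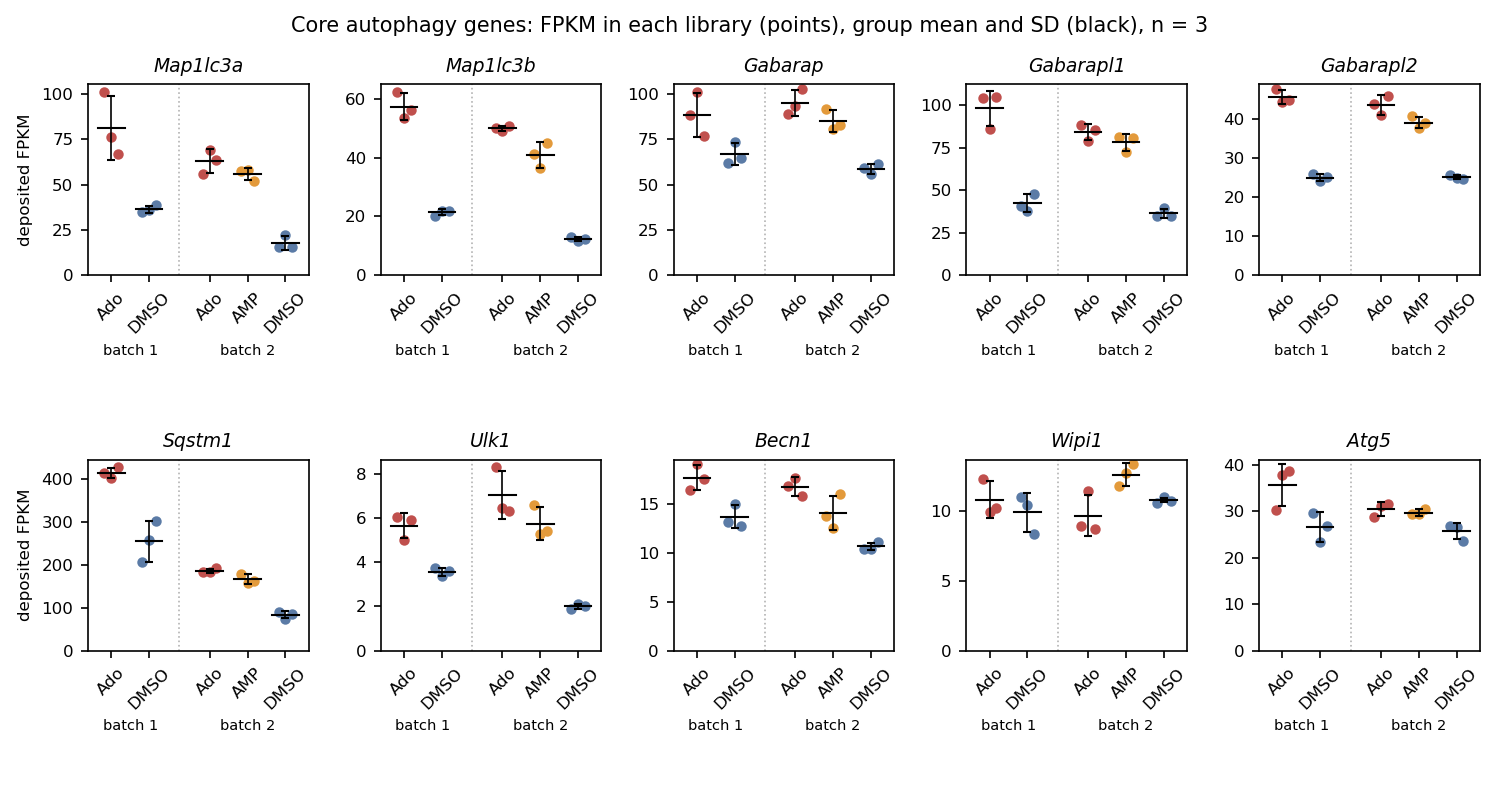
Deposited FPKM (y axis, linear from 0, its own range in each panel) of the 10 core autophagy genes in the 15 libraries, with 1 point per library and the group mean and SD in black (n = 3). Ado stands for adenosine, at 0.05 mM in batch 1 and 0.1 mM in batch 2. In 9 panels the adenosine and AMP points lie above the DMSO points of their batch, and in the Wipi1 panel the adenosine and DMSO points overlap.

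By FPKM, Sqstm1 was the most abundant member in every group and Ulk1 the least abundant. In batch 1 the mean levels with adenosine were 416 FPKM for Sqstm1, 98.2 for Gabarapl1, 88.7 for Gabarap, 81.3 for Map1lc3a, 57.3 for Map1lc3b, 45.8 for Gabarapl2, 35.6 for Atg5, 17.7 for Becn1, 10.8 for Wipi1 and 5.66 for Ulk1. With DMSO the order in batch 1 was Sqstm1 at 256 FPKM, Gabarap at 66.8, Gabarapl1 at 42.4, Map1lc3a at 36.5, Atg5 at 26.6, Gabarapl2 at 25.1, Map1lc3b at 21.4, Becn1 at 13.7, Wipi1 at 9.92 and Ulk1 at 3.57. Map1lc3b thus stood below Atg5 and Gabarapl2 with DMSO and above both with adenosine. The ranges of Gabarapl1, Gabarap and Map1lc3a overlapped from neighbour to neighbour with adenosine, as did those of Gabarapl1 and Map1lc3a and those of Atg5 and Gabarapl2 with DMSO. Batch 2 gave a similar order, though with DMSO Map1lc3a, at 17.8 FPKM, stood below Atg5 at 25.7 and Gabarapl2 at 25.2. With adenosine and AMP it stood above both. Wipi1 and Becn1 were apart at 9.66 and 16.8 FPKM with adenosine in batch 2. They overlapped at 12.6 and 14.1 FPKM with AMP and at 10.8 and 10.7 FPKM with DMSO.

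Ulk1, the kinase that starts autophagosome formation, rose in all 3 comparisons and more in batch 2 than in batch 1. It had 6.06, 5 and 5.92 FPKM with adenosine in batch 1, against 3.74, 3.39 and 3.59 FPKM with DMSO. In batch 2 it had 8.31, 6.47 and 6.34 FPKM with adenosine and 6.58, 5.26 and 5.39 FPKM with AMP, against 1.88, 2.12 and 2.03 FPKM with DMSO. Every treated library was above every DMSO library of its batch. The log2 fold change was 0.67 (SE 0.16, edgeR adjusted p = 0.00481) with adenosine in batch 1, 1.8 (SE 0.14, adjusted p = 1.59e-08) with adenosine in batch 2 and 1.52 (SE 0.14, adjusted p = 1.53e-07) with AMP. Ulk1 was covered by 137 to 713 counts per library, and 137 was the lowest count of any member in any library.

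Becn1 encodes Beclin 1, the scaffold of the lipid kinase complex that nucleates the membrane. It had 16.5, 19.1 and 17.6 FPKM with adenosine in batch 1, against 13.2, 15 and 12.8 FPKM with DMSO. Its batch 2 values were 16.9, 17.7 and 15.8 FPKM with adenosine and 13.8, 12.6 and 16.0 FPKM with AMP, against 10.4, 10.4 and 11.1 FPKM with DMSO. The groups did not overlap, but in batch 1 the highest DMSO library came close to the lowest adenosine library. The rise was 1.31-fold with adenosine in batch 1 (log2 0.38, SE 0.12, edgeR adjusted p = 0.0236), 1.57-fold in batch 2 (log2 0.65, SE 0.09, adjusted p = 7.85e-06) and 1.33-fold with AMP (log2 0.41, SE 0.09, adjusted p = 0.000755). The batch 1 call was lost on leaving out DMSO replicate 1 (adjusted p = 0.0944), DMSO replicate 3 (0.0825), adenosine replicate 2 (0.119) or adenosine replicate 3 (0.0688), without a filter on low counts (0.0721) and with limma on log2(FPKM + 1) without a filter (0.0584). The exons of Becn1 shared 3104 bases, 43.9% of their length, with Cntd1 on the opposite strand. The libraries do not keep the strand, so reads there cannot be assigned to one gene, but Cntd1 itself had at most 2 counts in any library of batch 1.

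Wipi1, which binds phosphatidylinositol 3-phosphate on the forming membrane, was the member with no called change. It had 12.3, 9.90 and 10.2 FPKM with adenosine in batch 1, against 11, 10.4 and 8.36 FPKM with DMSO. The batch 2 libraries had 8.92, 11.4 and 8.69 FPKM with adenosine and 11.8, 12.7 and 13.4 FPKM with AMP, against 10.6, 11 and 10.7 FPKM with DMSO. The adenosine and DMSO libraries overlapped in both batches, while the 3 AMP libraries all lay above the DMSO libraries. The log2 fold change was 0.13 with adenosine in batch 1 (95% interval -0.20 to 0.47, edgeR adjusted p = 0.523), -0.17 with adenosine in batch 2 (-0.39 to 0.06, adjusted p = 0.178) and 0.23 with AMP (0.01 to 0.46, adjusted p = 0.0653). A p that misses the threshold does not show that Wipi1 was the same in the groups. With library totals in place of TMM factors the batch 2 adenosine value turned positive (0.15, adjusted p = 0.294) and the AMP value was called higher (0.50, adjusted p = 0.00134). The AMP value was also called with the replicate number as a block (0.23, adjusted p = 0.0496), in a fit of the 6 libraries alone (adjusted p = 0.0292) and without AMP replicate 1 (adjusted p = 0.0485), and without adenosine replicate 2 the batch 2 adenosine value was called lower (-0.30, adjusted p = 0.0177).

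Atg5, a subunit of the complex that attaches ATG8 proteins to lipid, rose least of the called members in batch 2. It had 30.3, 37.7 and 38.7 FPKM with adenosine in batch 1, against 29.6, 23.3 and 26.9 FPKM with DMSO. In batch 2 it had 28.8, 31.1 and 31.6 FPKM with adenosine and 29.3, 29.3 and 30.5 FPKM with AMP, against 26.7, 26.6 and 23.6 FPKM with DMSO. The groups did not overlap, though in batch 1 the lowest adenosine library and the highest DMSO library were nearly level. The rise was 1.35-fold with adenosine in batch 1 (log2 0.43, SE 0.14, edgeR adjusted p = 0.0303), 1.18-fold with adenosine in batch 2 (log2 0.24, SE 0.08, adjusted p = 0.0145) and 1.16-fold with AMP (log2 0.21, SE 0.08, adjusted p = 0.0308). The batch 1 call was lost without DMSO replicate 2 (adjusted p = 0.136), DMSO replicate 3 (0.0656), adenosine replicate 2 (0.116) or adenosine replicate 3 (0.13), with the replicate block (0.0545), without a filter on low counts (0.055) and with limma on log2(FPKM + 1) without a filter (0.09). The batch 2 calls were lost without DMSO replicate 3 (adjusted p = 0.0821 with adenosine and 0.147 with AMP), without adenosine replicate 3 (0.0517) and without AMP replicate 3 (0.076).

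The 5 genes of the ATG8 family all rose in all 3 comparisons, but by unequal amounts. Map1lc3b, which encodes LC3B, the usual marker of autophagosomes, had the largest rise of the 10 members each time. It had 62.3, 53.5 and 56.0 FPKM with adenosine in batch 1, against 20.2, 22 and 22 FPKM with DMSO. Its batch 2 values were 49.9, 49.1 and 50.8 FPKM with adenosine and 41.3, 36.3 and 44.9 FPKM with AMP, against 12.9, 11.8 and 12.2 FPKM with DMSO. The lowest treated library was well above the highest DMSO library in both batches. This was 2.69-fold in batch 1 (log2 1.43, SE 0.11, edgeR adjusted p = 2.21e-06), 4.03-fold with adenosine in batch 2 (log2 2.01, SE 0.08, adjusted p = 2.27e-11) and 3.33-fold with AMP (log2 1.73, SE 0.08, adjusted p = 1.87e-10). A larger log2 fold change was found for 1055 of the 13842 genes tested in batch 1, for 998 of 13063 with adenosine in batch 2 and for 1164 with AMP.

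Map1lc3a, its close relative LC3A, had 101, 76.1 and 66.9 FPKM with adenosine in batch 1, against 35, 35.9 and 38.6 FPKM with DMSO. The batch 2 libraries had 56.1, 69.4 and 63.5 FPKM with adenosine and 57.6, 57.9 and 52.0 FPKM with AMP, against 15.7, 22.2 and 15.6 FPKM with DMSO. Its adenosine libraries of batch 1 spread widely, with an SD of 21.6% of their mean, yet all treated libraries lay above the DMSO libraries of their batch. The 2 tables were scaled separately, so levels are not compared across batches. The rise was 2.24-fold with adenosine in batch 1 (log2 1.16, SE 0.16, edgeR adjusted p = 0.000106), 3.53-fold in batch 2 (log2 1.82, SE 0.13, adjusted p = 6.72e-09) and 3.15-fold with AMP (log2 1.65, SE 0.13, adjusted p = 2.78e-08).

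The GABARAP genes encode the ATG8 proteins that act mainly in later steps, up to fusion with the lysosome. Gabarapl1 rose most of the 3 and by similar amounts in the comparisons. It had 104, 86.3 and 105 FPKM with adenosine in batch 1, against 40.9, 38.1 and 48.1 FPKM with DMSO. In batch 2 it had 88.6, 79.1 and 85.2 FPKM with adenosine and 81.3, 72.4 and 80.8 FPKM with AMP, against 35, 39.4 and 35 FPKM with DMSO. All treated libraries were far above the DMSO libraries, with log2 fold changes of 1.22 (SE 0.13, edgeR adjusted p = 2.27e-05) in batch 1, 1.2 (SE 0.08, adjusted p = 3.91e-09) with adenosine in batch 2 and 1.10 (SE 0.08, adjusted p = 1.53e-08) with AMP. Gabarapl2 had 47.8, 44.6 and 45 FPKM with adenosine in batch 1, against 25.9, 24.2 and 25.3 FPKM with DMSO. In batch 2 Gabarapl2 had 43.9, 41.1 and 46.1 FPKM with adenosine and 40.8, 37.9 and 39 FPKM with AMP, against 25.7, 25.1 and 24.8 FPKM with DMSO. Its libraries were the tightest of the family in batch 1, and the log2 fold change was 0.87 (SE 0.12, edgeR adjusted p = 9.86e-05) in batch 1, 0.79 (SE 0.08, adjusted p = 1.84e-07) with adenosine in batch 2 and 0.64 (SE 0.08, adjusted p = 2.36e-06) with AMP.

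Gabarap, the founding member of that branch, rose least of the ATG8 genes. It had 88.5, 101 and 76.7 FPKM with adenosine in batch 1, against 61.9, 73.6 and 64.8 FPKM with DMSO. Its batch 2 values were 88.9, 93.3 and 103 FPKM with adenosine and 92.0, 80.9 and 82.9 FPKM with AMP, against 59.4, 55.8 and 61.3 FPKM with DMSO. The batch 1 groups were separated by a narrow gap, the batch 2 groups by a wide one. The log2 fold change was 0.42 (SE 0.13, edgeR adjusted p = 0.0218) in batch 1, 0.68 (SE 0.08, adjusted p = 1.51e-06) with adenosine in batch 2 and 0.54 (SE 0.08, adjusted p = 2.46e-05) with AMP. The batch 1 call was lost without DMSO replicate 1 (adjusted p = 0.0975), DMSO replicate 3 (0.0632), adenosine replicate 1 (0.0548) or adenosine replicate 2 (0.142), and with limma on log2(FPKM + 1) without a filter (0.0811).

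**Figure D2:**
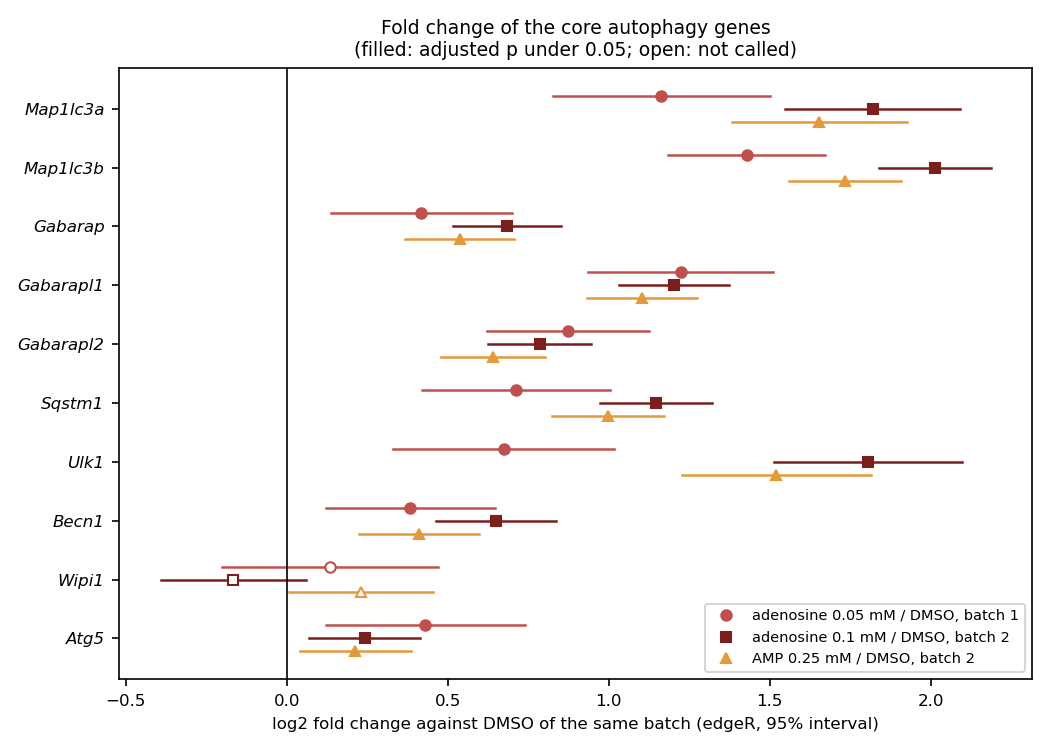
Log2 fold change against DMSO of the same batch (x axis) of the 10 members, from edgeR on the counts, with 95% intervals as lines. Circles stand for 0.05 mM adenosine in batch 1, squares for 0.1 mM adenosine in batch 2 and triangles for 0.25 mM AMP in batch 2. The filled symbols, adjusted p under 0.05, all lie to the right of 0, and the 3 open symbols are those of Wipi1.

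The 5 ATG8 genes rose unequally, and the make-up of the family's transcripts differed between treated and DMSO libraries. Their summed level was 349 to 403 FPKM with adenosine in batch 1, against 184 to 199 FPKM with DMSO. In batch 2 the sum was 327 to 349 FPKM with adenosine and 285 to 313 FPKM with AMP, against 149 to 154 FPKM with DMSO. By FPKM, Gabarap was the largest component with DMSO and its share was smaller with treatment. It had 21.9% to 27.9% with adenosine and 32.6% to 38.0% with DMSO in batch 1. In batch 2 it had 27.2% to 29.5% with adenosine, 27.7% to 29.4% with AMP and 36.1% to 41.2% with DMSO. The share of Map1lc3b was larger, at 14.8% to 16.0% with adenosine and 11% to 11.4% with DMSO in batch 1, and at 14.6% to 15.2% with adenosine, 12.7% to 15% with AMP and 7.67% to 8.69% with DMSO in batch 2. Map1lc3a had 17.1% to 20.9% of the sum with adenosine, 17.4% to 20.3% with AMP and 10.5% to 14.4% with DMSO in batch 2, without overlap, while in batch 1 its 19.2% to 25% with adenosine overlapped its 18.5% to 19.4% with DMSO. A share depends on all 5 genes and shows unequal change, not which gene changed, and these shares were not tested. Shares by FPKM also depend on the gene lengths used. In counts, Map1lc3b stood above Gabarap with DMSO in batch 1, at 2381 to 2988 against 1787 to 2245. With DMSO in batch 2 the counts were 888 to 1249 for Map1lc3b and 1027 to 1409 for Gabarap.

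**Figure D3:**
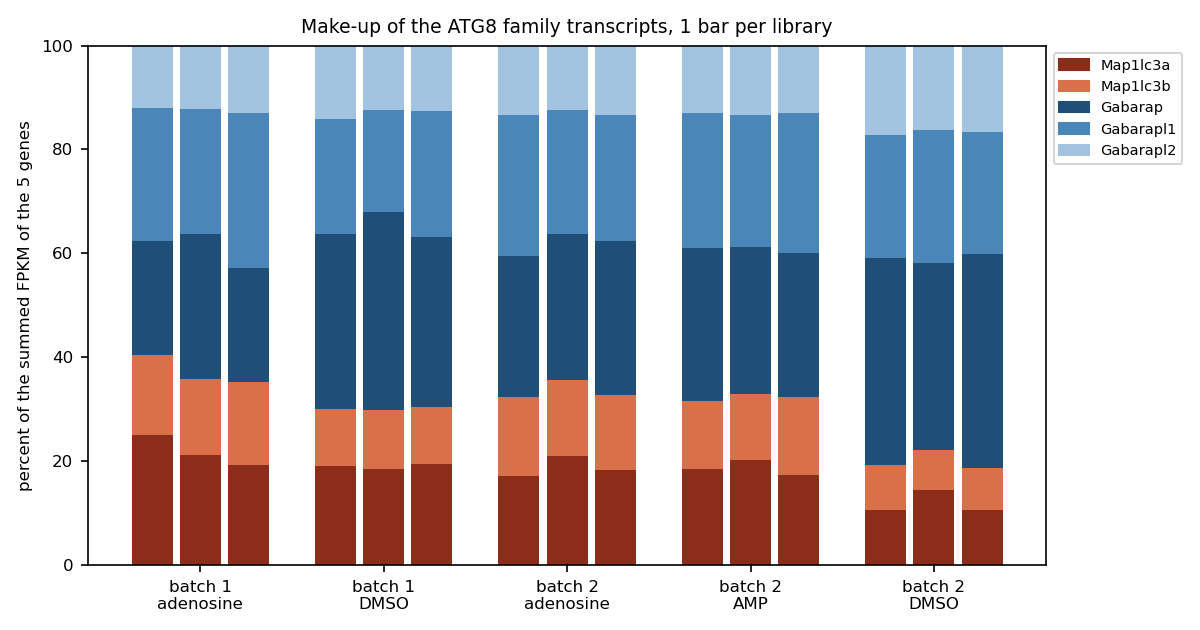
Share of each ATG8 gene in the summed FPKM of the 5 genes (y axis, percent), with 1 bar per library, grouped by batch and treatment. The Gabarap segment (dark blue) is shorter in every adenosine and AMP bar than in the DMSO bars of its batch, and the Map1lc3b segment (orange) is longer.

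Sqstm1, the p62 receptor that links ubiquitin-marked cargo to ATG8 proteins, was the most abundant member, by a wide margin in batch 1 and by a smaller one over Gabarap in batch 2, at 83.4 against 58.8 FPKM with DMSO. It had 416, 404 and 428 FPKM with adenosine in batch 1, against 207, 258 and 303 FPKM with DMSO. The batch 2 libraries had 183, 183 and 192 FPKM with adenosine and 180, 157 and 163 FPKM with AMP, against 90.1, 74.5 and 85.7 FPKM with DMSO. The treated libraries of a group lay close together, and the spread in batch 1 came from the DMSO libraries, whose SD was 18.7% of their mean. The rise was 1.64-fold with adenosine in batch 1 (log2 0.71, SE 0.13, edgeR adjusted p = 0.00124), 2.21-fold in batch 2 (log2 1.15, SE 0.08, adjusted p = 7.97e-09) and 2.00-fold with AMP (log2 1.00, SE 0.08, adjusted p = 4.91e-08). Relative to the summed ATG8 level, Sqstm1 stood at 1.03 to 1.23 with adenosine and 1.12 to 1.52 with DMSO in batch 1, and at 0.549 to 0.560 with adenosine, 0.545 to 0.574 with AMP and 0.483 to 0.606 with DMSO in batch 2. These ratios overlapped between treated and DMSO libraries in both batches. The exons of Sqstm1 shared 580 bases, 17.3% of their length, with Mrnip on the opposite strand, and Mrnip had at most 69 counts in any library against at least 2497 for Sqstm1. Its log2 fold change was 0.04, 0.53 and -0.14 in the 3 comparisons, none of them called.

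In the authors' deposited table of batch 1, which codes its log2 fold changes as DMSO over adenosine, 9 of the 10 members were marked significant, all with values below 0 and so higher with adenosine. Map1lc3b had -1.42 and Becn1 -0.37 there, the extremes of the 9. Wipi1 had -0.12 in the authors' deposited table, with an adjusted p of 0.644.

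The adenosine dose was 0.1 mM in batch 2 against 0.05 mM in batch 1, so dose and batch cannot be told apart in a comparison of the 2 adenosine effects. A joint fit of 12 libraries over 13037 genes in both tables tested whether the log2 fold change differed between batches, and called 5.28% of genes higher and 4.88% lower in batch 2. Among the members, 2 of 10 were called higher and 0 lower. The rise of Ulk1 was larger in batch 2 by 1.13 on the log2 scale (SE 0.20, edgeR adjusted p = 0.00307), and that of Map1lc3b by 0.59 (SE 0.12, adjusted p = 0.00757). Map1lc3a had a difference of 0.66 (SE 0.22, adjusted p = 0.0712) and Sqstm1 one of 0.44 (SE 0.16, adjusted p = 0.0931), neither of them called. Gabarapl1 had -0.01 (95% interval -0.33 to 0.30, adjusted p = 0.961) and Gabarapl2 had -0.08 (-0.34 to 0.18, adjusted p = 0.703). The other 4 members had differences of -0.30 for Wipi1, -0.18 for Atg5, 0.27 for Gabarap and 0.27 for Becn1, none of them called. Map1lc3a was called with DESeq2 (0.66, adjusted p = 0.0425), with library totals (0.77, adjusted p = 0.0343), without batch 1 adenosine replicate 1 (0.85, adjusted p = 0.0131) and without batch 2 DMSO replicate 2 (0.87, adjusted p = 0.0349). Sqstm1 was called with library totals (0.55, adjusted p = 0.0463) and without batch 1 DMSO replicate 1 (0.58, adjusted p = 0.0115). Library totals gave 959 genes higher and 295 lower in this comparison, against 688 and 636 with TMM, and moved the median difference of all genes to 0.11.

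**Figure D4:**
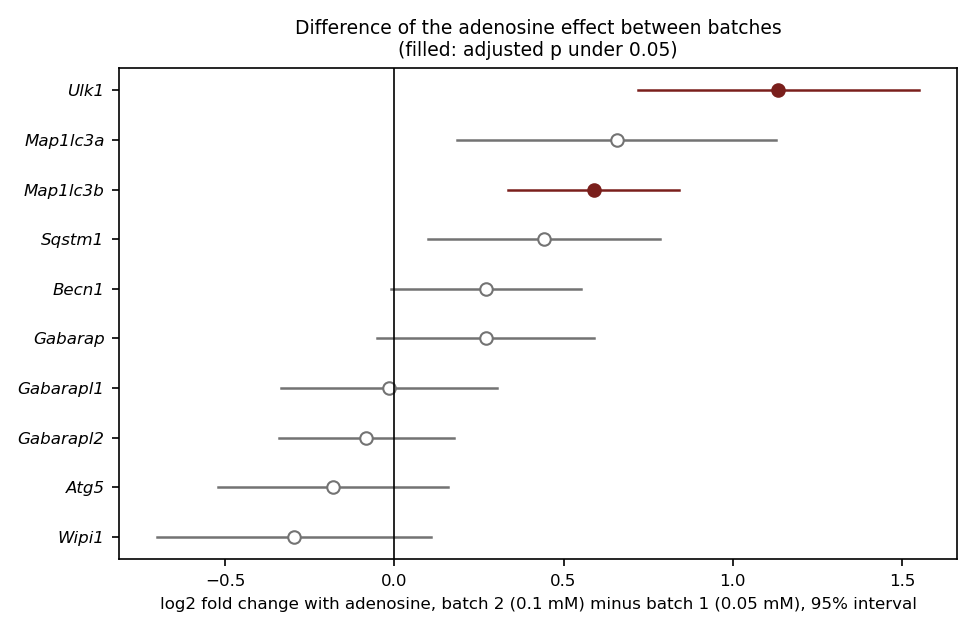
Difference of the adenosine log2 fold change between batch 2 (0.1 mM) and batch 1 (0.05 mM) for the 10 members (x axis), as batch 2 minus batch 1, with 95% intervals. The filled points, Ulk1 at 1.13 and Map1lc3b at 0.59, had an adjusted p under 0.05, and the open points did not.

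A wider list of 74 other autophagy genes, sorted into 7 roles, was higher more often than lower. The roles do not separate genes that promote autophagy from genes that restrain it, so these counts give no direction for the pathway. In batch 1, 29 were called higher, 6 lower and 39 not, where 19.6% of all genes were called higher and 19.5% lower. With adenosine in batch 2 the counts were 45 higher, 12 lower and 17 not, where 34.9% were called higher and 34.5% lower. With AMP they were 45 higher, 7 lower and 22 not, where 33.7% were called higher and 31.8% lower. The median log2 fold change of the list was 0.30, 0.53 and 0.46 in these comparisons. With library totals the lower calls fell to 2 in each comparison and the higher calls numbered 39, 60 and 58.

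Of the 4 other genes of the initiation complex, 3 rose in batch 1 and 4 with adenosine and with AMP in batch 2. Atg101, a subunit that stabilises the ULK1 complex, had the largest rise each time, with 71.0, 52.1 and 59.6 FPKM with adenosine and 25.7, 25.3 and 39.4 FPKM with DMSO in batch 1 (log2 1.03, SE 0.19, edgeR adjusted p = 0.000938). In batch 2 its log2 fold change was 1.09 with adenosine (SE 0.11) and 0.93 with AMP (SE 0.11). The adenosine effect on Rb1cc1, the FIP200 scaffold of that complex, was larger in batch 2 than in batch 1 by 0.63 (SE 0.17, edgeR adjusted p = 0.0289).

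Of 8 other nucleation genes, 3 rose and 2 fell in batch 1, 3 rose and 2 fell with adenosine in batch 2, and 4 rose and 2 fell with AMP. Atg14, which directs the lipid kinase to autophagosome sites, had the largest rise, with log2 fold changes of 1.18 (SE 0.23) in batch 1, 1.39 (SE 0.14) with adenosine in batch 2 and 1.23 (SE 0.14) with AMP. Sh3glb1, a membrane-curving protein also called Bif-1 that joins the Beclin 1 complex through Uvrag, had the largest fall of the list. It had 32.0, 46.7 and 35.3 FPKM with adenosine in batch 1, against 123, 120 and 96.7 FPKM with DMSO. In batch 2 it had 37.4, 40.5 and 36.4 FPKM with adenosine and 43.2, 51.3 and 44.4 FPKM with AMP, against 115, 117 and 107 FPKM with DMSO. The highest treated library was far below the lowest DMSO library in each batch, at log2 fold changes of -1.57 (SE 0.15, edgeR adjusted p = 9.95e-06), -1.58 (SE 0.08, adjusted p = 2.39e-10) and -1.29 (SE 0.08, adjusted p = 2.89e-09).

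Of 10 other genes of membrane growth, 4 rose in batch 1, 7 with adenosine in batch 2 and 6 with AMP, and 0 fell in any of the 3. Vmp1, a lipid scramblase of the endoplasmic reticulum, had the largest rise in batch 1 (log2 0.87, SE 0.11, edgeR adjusted p = 6.1e-05). In batch 2 it was Wdr45, which encodes WIPI4, with 8.61, 9.13 and 9.68 FPKM with adenosine and 8.36, 8.10 and 8.88 FPKM with AMP, against 3.66, 2.73 and 3.04 FPKM with DMSO (log2 1.52, SE 0.14, with adenosine and 1.42, SE 0.14, with AMP). The adenosine effect on Wdr45 was larger in batch 2 than in batch 1 by 1.25 (SE 0.26, edgeR adjusted p = 0.00786), and that on Wdr45b, which encodes WIPI3, was smaller, at -0.67 (SE 0.16, adjusted p = 0.0144).

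Of 11 other conjugation genes, 4 rose and 1 fell in batch 1, 5 rose and 4 fell with adenosine in batch 2, and 4 rose and 2 fell with AMP. Atg16l2, a homologue of the Atg5 partner Atg16l1, had the largest rise with adenosine, at log2 0.86 (SE 0.20, edgeR adjusted p = 0.00435) in batch 1 and 1.01 (SE 0.13, adjusted p = 4.31e-06) in batch 2. With AMP the largest rise was that of Tecpr1, which binds the Atg12-Atg5 conjugate, at log2 0.65 (SE 0.17, adjusted p = 0.00367). The largest called falls were Atg7, the activating enzyme of the system, in batch 1 (log2 -0.48, SE 0.17, adjusted p = 0.0371), and the ATG8 proteases Atg4a with adenosine in batch 2 (log2 -0.65, SE 0.17, adjusted p = 0.00327) and Atg4c with AMP (log2 -0.55, SE 0.18, adjusted p = 0.0151). In batch 1 Atg4a had a lower fitted value than Atg7 but was not called (log2 -0.71, SE 0.28, edgeR adjusted p = 0.0585).

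Of 12 other receptors and adaptors, 7 rose and 0 fell in batch 1, 10 rose and 1 fell with adenosine in batch 2, and 10 rose and 0 fell with AMP. The largest fitted rise was that of Ccpg1, a receptor for endoplasmic reticulum, with log2 2.64 (SE 0.59), 3.70 (SE 0.81) and 3.25 (SE 0.84). Its counts were small, 31 to 52 with adenosine and 3 to 9 with DMSO in batch 1, and 11 to 42 with adenosine, 12 to 20 with AMP and 0 to 3 with DMSO in batch 2. The exons of Ccpg1 shared 55.8% of their length with Gm44503 and Pigb, so its counts are uncertain. Wdfy3, an adaptor for aggregates, fell with adenosine in batch 2 (log2 -0.42, SE 0.15, edgeR adjusted p = 0.0201). Calcoco1, another receptor for endoplasmic reticulum, had the largest called difference between the batches within this role (0.95, SE 0.21, adjusted p = 0.0102).

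Of 13 other genes of fusion with the lysosome, 4 rose and 1 fell in batch 1, 7 rose and 2 fell with adenosine in batch 2, and 6 rose and 2 fell with AMP. Stx17, the SNARE protein of the autophagosome, had the largest fall in all 3, with 4.39, 5.32 and 5.17 FPKM with adenosine and 7.42, 7.27 and 7.51 FPKM with DMSO in batch 1. Its log2 fold changes were -0.57 (SE 0.15, edgeR adjusted p = 0.00853), -0.38 (SE 0.11, adjusted p = 0.00687) and -0.45 (SE 0.11, adjusted p = 0.00228). The largest rises were Plekhm1, a Rab7 effector, in batch 1 (log2 0.77, SE 0.18) and the tether Epg5 in batch 2 (log2 1.09, SE 0.13, with adenosine and 0.97, SE 0.14, with AMP). For Vamp8, the SNARE partner on the lysosome, the adenosine effect was larger in batch 2 than in batch 1 by 0.69 (SE 0.17, edgeR adjusted p = 0.0198).

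Of 16 regulators, 4 rose and 2 fell in batch 1, 9 rose and 3 fell with adenosine in batch 2, and 11 rose and 1 fell with AMP. Trp53inp1, a p53 target that binds ATG8 proteins, had the largest rise each time. It had 24.6, 37.7 and 37.7 FPKM with adenosine in batch 1, against 9.66, 10.0 and 10.4 FPKM with DMSO. Its batch 2 values were 32.4, 29.5 and 32.1 FPKM with adenosine and 23.9, 23.0 and 26.9 FPKM with AMP, against 5.20, 4.98 and 4.10 FPKM with DMSO. The groups were far apart, at log2 fold changes of 1.75 (SE 0.16, edgeR adjusted p = 6.38e-06), 2.71 (SE 0.10, adjusted p = 6.66e-12) and 2.37 (SE 0.10, adjusted p = 3.9e-11). The largest called falls were Rptor, the mTORC1 subunit raptor, in batch 1 (log2 -0.53, SE 0.14, adjusted p = 0.0102) and Prkaa1, a catalytic subunit of the AMP-activated kinase, in batch 2 (log2 -0.43, SE 0.08, with adenosine and -0.34, SE 0.08, with AMP). Tfeb had lower fitted values but was not called. Its log2 fold changes were -1.18 (SE 0.49, edgeR adjusted p = 0.0718), -0.55 (SE 0.53, adjusted p = 0.361) and -0.75 (SE 0.54, adjusted p = 0.235). Its counts were small, at 7 to 40 with DMSO in batch 2. Foxo1, a forkhead transcription factor, differed most between the batches among the regulators (0.98, SE 0.21, adjusted p = 0.0101).

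**Figure D5:**
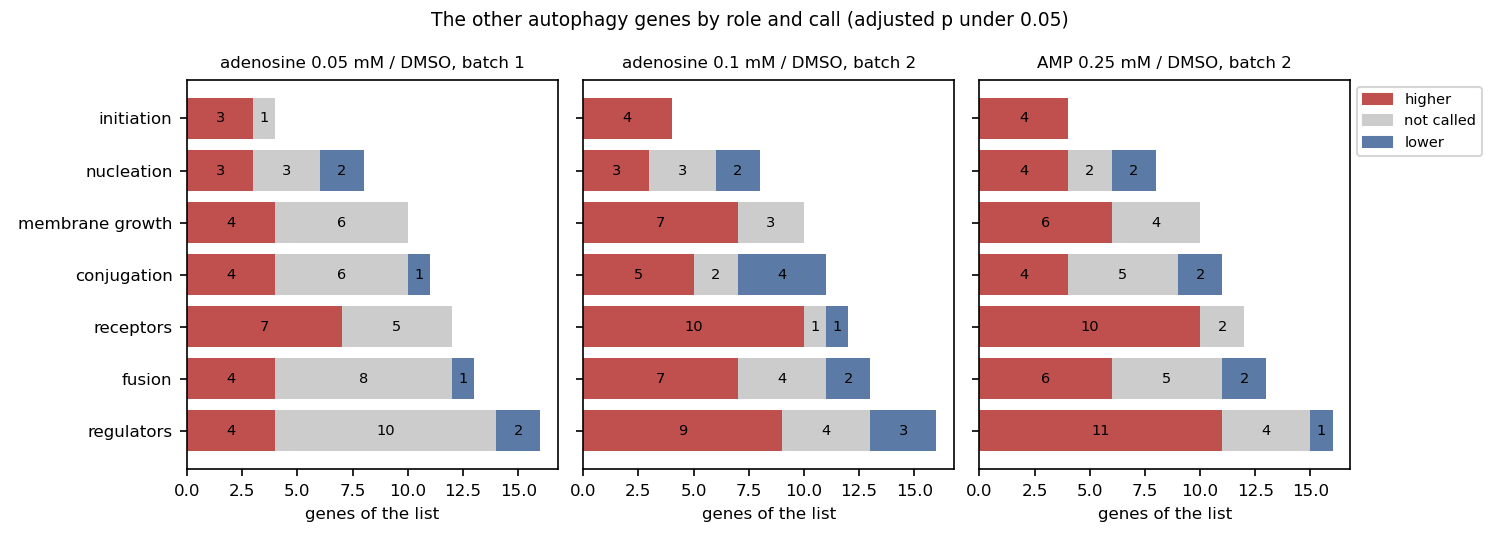
Number of the 74 other autophagy genes of each role (x axis, genes) that were called higher (red), not called (grey) or called lower (blue) at an adjusted p under 0.05, with 1 panel per comparison. The receptors have 7, 10 and 10 of 12 genes in red, and the conjugation genes, with 4, 5 and 4 of 11, are more mixed. Over all genes tested, 19.6%, 34.9% and 33.7% were called higher in the 3 comparisons.

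The genes whose pattern was most like that of 2 members were sought among 8756 genes, as the Pearson correlation of log2 CPM over the 15 libraries, each relative to the DMSO mean of its batch. These correlations describe libraries that fall into treated and untreated ones, and so carry no test. For Sqstm1 they were Vamp1, a synaptic vesicle SNARE gene (r = 0.986), 1500015A07Rik (0.985) and Uap1l1 (0.985). For Gabarapl1 they were Rnd1 (0.992), Arg2, the mitochondrial arginase gene (0.99), and Cdk2ap2 (0.988). The sizes of change were not alike. Arg2 had log2 fold changes of 6.92, 6.95 and 6.25 in the 3 comparisons, where Gabarapl1 had 1.22, 1.2 and 1.10. Vamp1 had 2.19, 3.38 and 2.87, where Sqstm1 had 0.71, 1.15 and 1.00.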

How the data were processed

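RNA of 15 libraries was made into cDNA by Smart-seq2 and fragmented with Tn5, per the labels' protocols. The authors deposited raw counts per gene and FPKM for each batch. Batch 1 was counted with featureCounts 1.6.4 without a strand option, per the file headers, and Trim Galore, STAR and DESeq2 on mm10 are named in the submitters' processing notes. The deposited FPKM carry a factor per library. Of batch 2, 43 lines with 0.0589% of the counts named no gene and were left out, and its table had been filtered before deposit (smallest total 101). The authors' deposited log2 fold changes and adjusted p-values of batch 1 were used as a description.

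Counts were tested with edgeR 4.0.16 in R 4.3.3 (quasi-likelihood F test, two-sided, TMM, filterByExpr by group, Benjamini-Hochberg, adjusted p under 0.05) on the whole tables. Batch 1 was fitted on 6 libraries, batch 2 on 9, and the difference between batches on 12, as an interaction. Standard errors are the log2 fold change over the square root of F. The scripts were tested on simulated data. Alternatives were DESeq2 1.42.0, library totals, no count filter, a replicate block, each library left out, and limma 3.58.1 on log2(FPKM + 1) or log2(FPKM + 0.1) with a mean FPKM of at least 1 or no filter. Chi-square tests of replicate pairs found no duplicated library. Libraries of the same number in the adenosine and DMSO groups of batch 2 had correlated deviations (r = 0.331, 0.254 and 0.151). Those of unlike number there ran from -0.261 to 0.024. Libraries of the same number gave -0.202, 0.24 and 0.009 in batch 1. They gave 0.015, 0.26 and 0.027 between AMP and DMSO, and 0.225, 0.49 and -0.031 between adenosine and AMP. A pair of unlike number in batch 1 reached 0.327, so these values do not establish pairs. The main fits took no pairs, and the replicate block was an alternative.

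Text names all members, the called gene of each role with the largest rise and fall per comparison, and the 3 genes most like Sqstm1 and Gabarapl1 (mean of at least 10 CPM). Mrnip, Cntd1 and the genes overlapping Ccpg1 were named after their values were seen. Members and lists were chosen with earlier results of these data known.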

Additional observations from a re-analysis of the deposited data

Results flagged for a closer look

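The adenosine effect on Ulk1 differed between the batches by 1.13 on the log2 scale (batch 2 minus batch 1, edgeR interaction, adjusted p = 0.00307), with a log2 fold change of 1.8 in batch 2 (0.1 mM) and of 0.67 in batch 1 (0.05 mM). The effect on Map1lc3b differed by 0.59 (adjusted p = 0.00757), with 2.01 in batch 2 and 1.43 in batch 1. Both genes were higher with adenosine in 3 of 3 libraries of each batch, and dose and batch cannot be told apart.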

How the results depend on the processing

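Ulk1, Sqstm1, Map1lc3a, Map1lc3b, Gabarapl1 and Gabarapl2 stayed called higher in all 3 comparisons with DMSO under every alternative run. On leaving out 1 library at a time, the members called higher numbered 6 to 8 in batch 1, 8 to 9 with adenosine in batch 2, where 0 to 1 was called lower, and 8 to 10 with AMP, and 2 to 3 for the difference between batches. Without any count filter 7 members were called in batch 1 (Becn1 and Atg5 lost), and 6 with limma on unfiltered FPKM (Gabarap lost too). With library totals the other autophagy genes called lower moved to 2 in each comparison, all genes called lower to 2891 with adenosine in batch 2, 2605 with AMP and 295 for the difference, the members called in the difference to 4, and these signs turned: Wipi1 with adenosine in batch 2 (0.145), and in the difference Gabarapl1 (0.09) and Gabarapl2 (0.025). With limma on unfiltered FPKM the other autophagy genes called lower in batch 1 moved to 3. The difference of Gabarapl1 also turned positive on leaving out batch 1 DMSO replicate 1 (0.018) or 2 (0.067), batch 1 adenosine replicate 1 (0.031) or 3 (0.062), batch 2 DMSO replicate 2 (0.077) or batch 2 adenosine replicate 2 (0.03), within -0.106 to 0.077. Leave-one-out counts for the difference ran from 384 to 915 genes higher and 238 to 965 lower, lowest for higher calls without batch 2 DMSO replicate 2 (384) or batch 2 adenosine replicate 1 (412), and 0 to 1 other autophagy gene lower. The replicate block left 8 members called in batch 1 (Atg5 0.428, adjusted p = 0.0545) and 10 with AMP (Wipi1 0.23, adjusted p = 0.0496), and changed no other call of a member. The cause of these shifts was not tested. Counting depth limits Ccpg1 most, with 0 to 3 counts in batch 2 DMSO libraries.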
